A study of Mus musculus with 2 samples.

Results

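Macrophages are often described by the genes with which they use arginine and by a few receptors and secreted proteins. Expression of 10 such genes, Arg1, Arg2, Nos2, Slc7a2, Mrc1, Cd163, Msr1, Chil3, Retnla and Il10, was followed in single cells of mouse pancreatic tumours, read with a droplet 3′ RNA kit. The genes were chosen by symbol, and all 10 were among the 32285 genes listed in both count matrices. The control library came from Porcnfl/fl mice (labelled WT) and the knockout library from their Csf1r-Cre;Porcnfl/fl littermates (labelled KO). Every animal carried orthotopically implanted KPC pancreatic cancer cells, and tumours were taken at day 21. Each library was a pool of tumours from 5 mice, so there is 1 library per genotype and the spread between mice is unknown. No test between the genotypes is therefore given, and every difference below lies between 2 libraries. Both groups carry the floxed Porcn alleles. Cre is driven by Csf1r, a gene expressed by monocytes as well as macrophages. The age and sex of the mice are not given in the sources used here.

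Porcn encodes the enzyme that attaches a lipid to Wnt proteins, without which they are not secreted. The comparison is between tumours of hosts in which it is intact and hosts in which cells that expressed Cre should lack it. Its own transcript could not show the genotype: it had 8 UMIs (unique molecular identifiers, counted transcripts) in control monocyte/macrophage-like cells and 4 in knockout cells. The ratio of knockout to control was 0.432, with a 95% interval from 0.0951 to 1.61. All intervals in the text are exact 95% intervals of the counts and leave out the spread between cells, mice and libraries. Which exons are deleted is not given in the sources used here, so a counted 3′ end may lie outside them.

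Arginine taken up by macrophages has 2 main fates. Arginases split it into ornithine and urea, and ornithine feeds polyamine and proline synthesis, whereas nitric oxide synthase turns it into nitric oxide and citrulline. Arg1 is the cytosolic arginase and Arg2 the mitochondrial one, Nos2 is the inducible nitric oxide synthase, and Slc7a2 is a transporter for arginine and other cationic amino acids. Mrc1 (mannose receptor, CD206), Cd163 (haptoglobin-haemoglobin receptor) and Msr1 (scavenger receptor A) are surface receptors. Chil3 (Ym1), a chitinase-like protein, and Retnla (RELMα), a resistin-like protein, are secreted and are known as genes induced by interleukin 4 and interleukin 13. Il10 encodes an anti-inflammatory cytokine. Nos2 is used as a mark of classical activation, and Arg1, Mrc1, Chil3 and Retnla as marks of alternative activation, although tumour macrophages are known to combine them.

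The control library held 13766 barcodes and the knockout library 12251. After filtering, 11516 control cells and 10467 knockout cells were kept, with median depths of 12168 and 10109 UMIs. The labels call the cells tumour-infiltrating, but the largest class carried epithelial markers, with 9138 control and 5401 knockout epithelial/tumour-like cells. Monocyte/macrophage-like cells numbered 506 in control, or 4.39% of kept cells (4.03–4.78), and 553 in knockout, or 5.28% (4.86–5.73). The median cell of the class had 2846 UMIs in control but 3966 in knockout. All 12 macrophage markers were detected in them in each library, with a summed level of 12300 CPM (UMIs per 1000000 UMIs of the class) in control and 16701 in knockout. These markers, Csf1r among them, also served in naming the cells. Csf1r, whose promoter drives Cre, stood at 238 CPM in control and 270 in knockout in this class. In neutrophil-like cells it stood at 29.1 and 41.1, from 24 and 19 UMIs. Among the T cell markers, 9 of 10 had a higher CPM in the knockout monocyte/macrophage-like cells, with a sum of 19.8 in control and 71.0 in knockout. Acinar markers stood at 16.1 and 222, with 10 of 11 higher in knockout. Epithelial/tumour markers stood at 525 and 242, with 2 of 11 higher in knockout. The part of these differences in the results below was not tested. The libraries shared 46 barcodes as deposited, 38 of them among kept cells, and in 7 of the 38 at least 1 of the cells was monocyte/macrophage-like.

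The class consisted of 3 clusters, formed without the 10 genes. Cluster 13 was led by Arg1, Mmp12 and the C1q genes and held 232 control and 209 knockout cells, with median depths of 5192 and 6495 UMIs. Cluster 14, led by Arg1, Mrc1, the C1q genes, Pid1 and F13a1, held 220 and 191 shallower cells, with 1795 and 1845 UMIs. Cluster 26, led by Ms4a4c, Arg1, Ms4a6d and Slfn4, scored alike for macrophage and monocyte markers (0.77 for both). It held 54 control cells, or 10.7% of the class, and 153 knockout cells, or 27.7%. A further cluster with 8 control and 93 knockout cells stayed unnamed because its monocyte and cDC2 scores were close.

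Before the values, the promoters of the 2 secreted proteins are shown beside those of their nearest relatives, because these relatives in the same families were counted mainly in other cells. Of the 10 genes, Mrc1, Cd163, Chil3 and Retnla had a RefSeq promoter window on GRCm38.p6, which runs from 250 bases before to 50 after the gene's start. The 190 bases farthest upstream are printed here, 5′ to 3′ on the strand of the gene. Capitals mark matches to TTCNNNGAA, the letters of a STAT binding site with 3 spacer bases, or to TTCNNNNGAA, the form with 4 spacer bases that STAT6 is known to prefer. Both motifs read the same on either strand, and no match of one overlapped the other.
Chil3 (chr3:106167625-106167814, minus strand): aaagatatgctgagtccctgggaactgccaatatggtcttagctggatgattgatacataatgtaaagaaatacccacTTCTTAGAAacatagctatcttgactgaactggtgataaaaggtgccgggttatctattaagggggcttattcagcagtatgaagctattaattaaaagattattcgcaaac
Chil4 (chr3:106219540-106219729, minus strand): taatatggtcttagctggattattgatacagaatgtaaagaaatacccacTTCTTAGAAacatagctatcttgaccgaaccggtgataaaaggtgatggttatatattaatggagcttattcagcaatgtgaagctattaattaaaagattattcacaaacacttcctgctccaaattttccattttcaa
Retnla (chr16:48842359-48842548, plus strand): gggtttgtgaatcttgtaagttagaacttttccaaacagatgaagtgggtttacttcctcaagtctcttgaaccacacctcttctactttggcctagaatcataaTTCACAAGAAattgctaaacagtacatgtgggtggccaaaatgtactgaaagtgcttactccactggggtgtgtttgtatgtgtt
Retnlg (chr16:48872358-48872547, plus strand): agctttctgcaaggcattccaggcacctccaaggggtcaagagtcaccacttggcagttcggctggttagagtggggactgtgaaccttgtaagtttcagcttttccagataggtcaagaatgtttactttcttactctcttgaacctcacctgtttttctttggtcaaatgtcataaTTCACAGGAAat
The match TTCTTAGAA was found in both chitinase-like promoters, starting 172 bases upstream of the start in Chil3 and 200 in Chil4. The 2 windows were identical at 252 of 329 aligned positions (76.6%). Retnla carried TTCACAAGAA 145 bases upstream and Retnlg TTCACAGGAA 72 bases upstream, and these windows were identical at 180 of 375 positions (48.0%). These distances are counted from the RefSeq start. For Chil4, Retnla and Retnlg it is not the gene start of the annotation used for positions, so the distances cannot be compared between genes. Of 32851 promoters of the same length, 8.3% held the 3-spacer motif and 7.0% the 4-spacer motif. Neither motif was found in the Mrc1 or Cd163 window. A match describes the letters and not a bound site.

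Arg1 (ENSMUSG00000019987, chromosome 10, 24915221 to 24927484 on GRCm38) was the gene of the set with the largest difference in monocyte/macrophage-like cells among those with enough UMIs. It had 3635 CPM (3559–3712) in control against 1695 (1647–1744) in knockout. The ratio was 0.466 (0.450–0.483), a log2 ratio of -1.10. This class held 8796 of all 9334 Arg1 UMIs in control and 4751 of 5001 in knockout. The next highest named classes were T-like cells in control, at 28.7 CPM, and neutrophil-like cells in knockout, at 15.2 CPM. Those values came from 19 UMIs in 2 cells and from 7 UMIs in 1 cell. The plot of levels by class shows the separation.

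**Figure D1:**
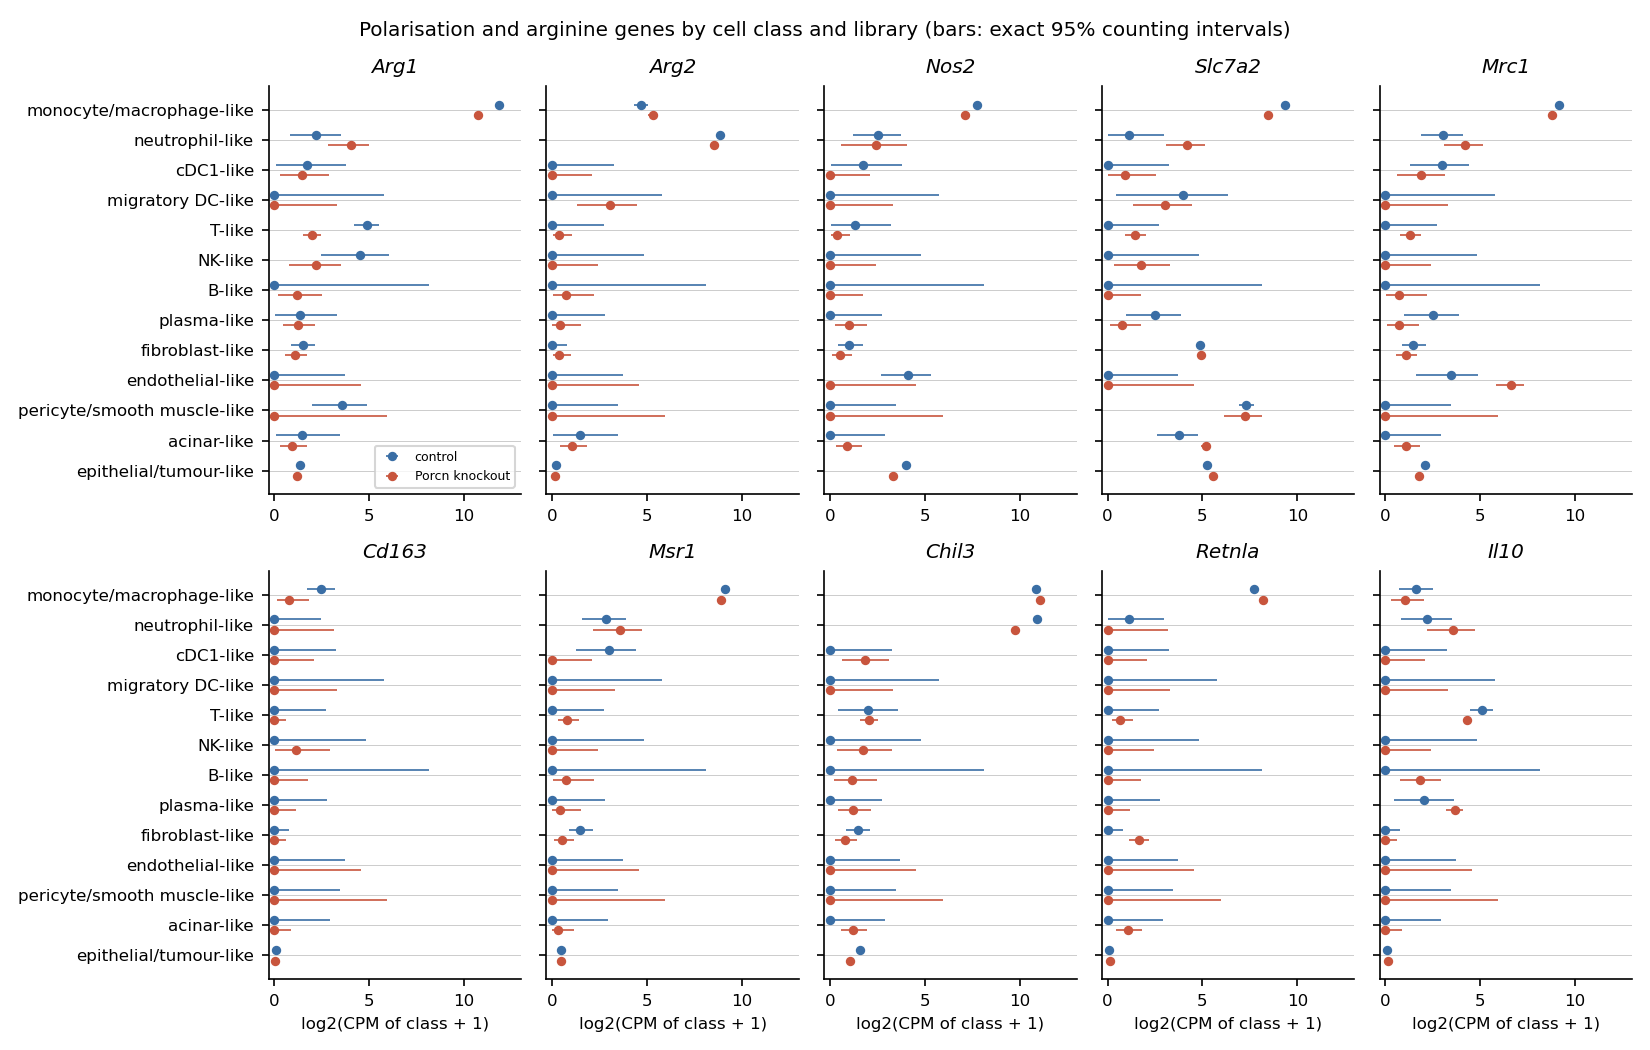
Level of each of the 10 genes in 13 cell classes, as log2 of CPM of the class plus 1, with control in blue, knockout in red and bars for exact 95% counting intervals. Arg1, Mrc1, Msr1 and Retnla are highest in monocyte/macrophage-like cells, Arg2 in neutrophil-like cells and Il10 in T-like cells, while Slc7a2 and Nos2 are also seen in epithelial/tumour-like cells.

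The lower Arg1 level was seen in each of the 3 clusters. It was 4306 CPM in control and 2198 in knockout in cluster 13, a ratio of 0.510 (0.490–0.531). In cluster 14 it was 1809 and 474, a ratio of 0.262 (0.226–0.303), and in cluster 26 it was 2312 and 1319, a ratio of 0.570 (0.508–0.642). The intervals of the 2 libraries did not overlap in any of the 3. With the clusters given the same weight in both libraries, the log2 ratio of the class was -1.02.

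Fewer knockout cells had any Arg1. A UMI of Arg1 was present in 69.4% of control and 46.8% of knockout cells of the class. After every cell was thinned to 1000 UMIs, which left out 14 control and 11 knockout cells, the shares were 61.8% (57.3–66.1) and 34.1% (30.1–38.3). T-like cells, which should lack Arg1 and had median depths of 2823 and 3341 UMIs, showed it in 1.11% and 0.252% of thinned cells. The median cell of cluster 13 had 30.3 Arg1 UMIs per 10000 in control and 8.45 in knockout, and the cell at the upper quartile had 60.8 and 34.0. In cluster 14 the median cell had 7.85 in control and 0 in knockout. In cluster 26 the medians were 12.0 and 2.20. The knockout curve lay at or below the control curve at every plotted percentile of cells.

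**Figure D2:**
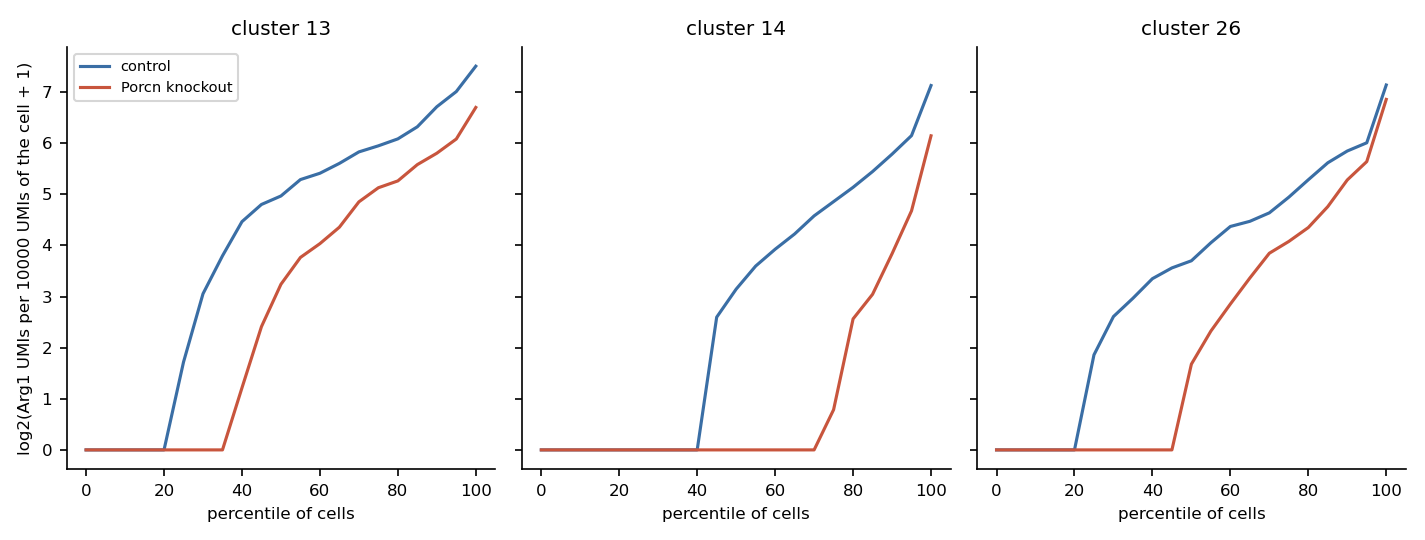
Arg1 UMIs per 10000 UMIs of the cell, as log2 of the value plus 1, against the percentile of cells in clusters 13, 14 and 26, with control in blue and knockout in red. The curves leave 0 at a higher percentile in knockout in each cluster, and the knockout median is 0 in cluster 14.

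Arg2 (ENSMUSG00000021125, chromosome 12, 79130777 to 79156301) was mainly a neutrophil transcript. Neutrophil-like cells held 375 of its 474 control UMIs and 171 of its 326 knockout UMIs. Their level was 454 CPM (409–503) in control against 370 (317–430) in knockout, a ratio of 0.815 (0.676–0.979). The intervals of the levels overlapped. The neutrophil-like class held 3 clusters, and Arg2 was highest in cluster 17, led by Retnlg, Hdc, Csf3r and Cxcr2, with 1049 CPM in control and 749 in knockout. In cluster 28, led by Cxcl2, Il1b and Acod1, the level was 693 in control and 406 in knockout, a ratio of 0.586 (0.460–0.744). In cluster 21, led by the granule genes Camp, Ngp and Ltf, it was 56.4 and 57.1. In thinned neutrophil-like cells Arg2 was present in 41.9% (36.1–48.0) in control and 30.1% (23.5–37.3) in knockout. After thinning, T-like cells showed it in 0 of 180 control cells (upper bound 2.03%) and in 0.0631% in knockout. The neutrophil-like cells themselves were shallow, with medians of 1709 and 1874 UMIs.

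In monocyte/macrophage-like cells Arg2 had 60 UMIs in control (24.8 CPM) and 111 in knockout (39.6 CPM), a ratio of 1.60 (1.16–2.22). Within the clusters the ratio was 1.79 (0.972–3.40) in cluster 13, 0.611 (0.250–1.41) in cluster 14 and 0.793 (0.496–1.31) in cluster 26, and each interval contained 1. Cluster 26 had the highest Arg2 of the 3 in both libraries, at 134 and 107 CPM, and made up more of the knockout class. With clusters weighted alike the log2 ratio was -0.07, against 0.66 for the class as it stood.

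Nos2 (ENSMUSG00000020826, chromosome 11, 78920787 to 78960254) was also lower in knockout monocyte/macrophage-like cells, though within 2-fold. Its 529 control UMIs gave 219 CPM (200–238) and its 389 knockout UMIs 139 (125–153), a ratio of 0.635 (0.555–0.725). The ratio was 0.702 (0.595–0.827) in cluster 13 and 0.519 (0.348–0.764) in cluster 14. It was lowest in cluster 26, where Nos2 went from 441 to 155 CPM, a ratio of 0.352 (0.261–0.477). Per cell, Nos2 was present in 13.4% of thinned control cells and 8.30% of those in knockout. Thinned T-like cells showed it in 0 control cells and 0.0631% of knockout cells. Most Nos2 UMIs of the tumour, 76.3% in control and 68.0% in knockout, lay in the far more numerous epithelial/tumour-like cells. There its level was 15.3 CPM (14.7–16.0) in control and 9.18 (8.59–9.80) in knockout.

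Nos2 was found more often in cells with Arg1 than in cells without it, but many cells had only 1 of the 2. After thinning, 59 control cells had both, 245 Arg1 alone and 7 Nos2 alone. In knockout 22 had both, 163 Arg1 alone and 23 Nos2 alone. Of thinned control cells with Arg1, 19.4% also had Nos2, against 3.72% of those without Arg1. In knockout these shares were 11.9% and 6.44%. Counted the other way, 89.4% of the control cells with Nos2 had Arg1, and 48.9% of the knockout cells with Nos2. Slc7a2 was likewise more frequent beside Arg1, with 40.5% against 10.6% in control and 25.4% against 7.84% in knockout. These are descriptions of cells within 1 library each.

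Slc7a2 (ENSMUSG00000031596, chromosome 8, 40862396 to 40922308) had 653 CPM (622–686) in monocyte/macrophage-like cells of the control library, against 353 (331–376) in those of the knockout. The ratio was 0.540 (0.498–0.585), a log2 ratio of -0.89. Cluster 13 had a ratio of 0.542 (0.493–0.596) and cluster 26 of 0.389 (0.301–0.504), whereas in cluster 14 the level was 351 in control and 343 in knockout. That log2 ratio of -0.03 was -0.50 as a mean over cells and -0.67 after thinning. In 8 of the 12 alternatives tried for this class the difference passed 2-fold, with log2 ratios down to -1.26 after thinning. The transporter was also found outside myeloid cells. Epithelial/tumour-like cells held 70.7% of its UMIs in control and 72.7% in knockout. Their levels were 36.3 (35.3–37.3) and 45.3 (44.0–46.7) CPM, the opposite order to the monocyte/macrophage-like class. The part of the differing make-up of the epithelial/tumour-like class in these levels was not tested. Pericyte/smooth muscle-like cells had 159 CPM in 48 control cells and 149 CPM in 9 knockout cells, with overlapping intervals. Fibroblast-like cells had 28.4 and 29.9 CPM, also overlapping.

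Among the receptors, Mrc1 (ENSMUSG00000026712, chromosome 2, 14229392 to 14332057) had 1385 UMIs in control and 1215 in knockout monocyte/macrophage-like cells, at 572 (543–603) and 433 (409–459) CPM. The ratio was 0.757 (0.701–0.819), but the clusters differed in direction. In cluster 13 it was 506 CPM in control and 327 in knockout, a ratio of 0.646 (0.579–0.720). Cluster 14 had the highest Mrc1, with 964 and 1190 CPM, a ratio of 1.23 (1.09–1.40), and in that cluster the share of thinned cells with a UMI was 35.9% in both libraries. Cluster 26 had 129 and 146 CPM with overlapping intervals. Among whole classes, its next highest levels were 97.6 CPM in knockout endothelial-like cells, from 16 UMIs in 2 cells, and 41.0 CPM in unnamed knockout cells. Within the unnamed cells, the cluster close to monocytes and cDC2 had 501 CPM in control, from 26 UMIs, and 168 in knockout, from 81. Epithelial/tumour-like cells held 24.2% of all Mrc1 UMIs in control and 14.6% in knockout, at 3.22 and 2.49 CPM.

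Msr1 (ENSMUSG00000025044, chromosome 8, 39581685 to 39642673) differed less at full depth in the class as a whole than in its macrophage clusters. It had 1341 UMIs (554 CPM, 525–585) in control and 1355 (483 CPM, 458–510) in knockout, a ratio of 0.872 (0.808–0.941). It was present in 37.6% of thinned control cells and 35.8% of thinned knockout cells, with overlapping intervals, and in 0 and 0.0631% of thinned T-like cells. The log2 ratio of -0.20 stayed below 0 in 11 of 12 alternatives and was 0.05 after thinning. By cluster the ratio was 0.743 (0.675–0.819) in cluster 13, 0.614 (0.486–0.773) in cluster 14 and 1.12 (0.919–1.36) in cluster 26. Over clusters 13 and 14 together it was 0.722 (0.660–0.789). The cluster 13 difference depended on the processing. Its log2 ratio of -0.43 lay between -0.42 and 0.03 in 3 alternatives, against -0.81 to -0.57 in cluster 14.

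Cd163 (ENSMUSG00000008845, chromosome 6, 124304656 to 124330527) was almost absent. It had 11 UMIs in 5 control cells and 2 UMIs in 2 knockout cells of the class, fewer than the 20 UMIs required for a ratio. Cluster 14 held 10 of the 11 control UMIs and both knockout UMIs. Over all kept cells there were 23 Cd163 UMIs in control and 8 in knockout.

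Chil3 (ENSMUSG00000040809, chromosome 3, 106147554 to 106167564) was found in 2 kinds of cells. Monocyte/macrophage-like cells had 4452 control UMIs, at 1840 CPM (1786–1895), and 5971 knockout UMIs, at 2130 (2076–2185), a ratio of 1.16 (1.11–1.20). Few cells carried it: 87 control and 93 knockout cells had any Chil3, and 13.2% and 11.3% of thinned cells, with overlapping intervals, against 1.11% and 0.441% of thinned T-like cells. In control 4 cells held 50% of the UMIs and 20 cells held 90%. In knockout 3 cells held 50% and 17 held 90%. The highest knockout cell had 1775 Chil3 UMIs among its 26752, which was 29.7% of the class's Chil3. Without the highest cell of each library the log2 ratio was 0.04, against 0.21 with them.

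The neutrophil-like class had 1618 Chil3 UMIs (1960 CPM) in control and 406 (879 CPM) in knockout, a log2 ratio of -1.15. Nearly all of them, 1614 and 401, lay in the granule-gene cluster 21, which had 54 control cells and 11 knockout cells. There the level was 3957 CPM in control and 3818 in knockout, a ratio of 0.965 (0.863–1.08). Cluster 21 was 18.4% of neutrophil-like cells in control and 5.95% in knockout. With the clusters weighted alike the log2 ratio of the class was -0.05. Within the granule-gene cluster the difference was inside counting error. Outside it, Chil3 had 3 control and 0 knockout UMIs in cluster 17, and 1 and 5 in cluster 28. These are fewer UMIs than a ratio requires here. The log2 ratio of 0.49 for the class without the granule-gene cluster therefore shows no direction.

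Chil4, the relative whose transcript is identical to that of Chil3 at 94.2% of positions, had 1747 of its 1756 control UMIs in epithelial/tumour-like cells. Its level there was 11.7 CPM in control and 1.02 in knockout, a ratio of 0.0869 (0.0703–0.106). The part of the differing make-up of that class in this ratio was not tested. Of 459 windows of 90 bases in the last 500 bases of Chil3 transcripts, 37 also occur in Chil4, so reads of the pair are separable over most of that stretch but not all of it. Chil4 had 3 and 7 UMIs in monocyte/macrophage-like cells.

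Retnla (ENSMUSG00000061100, chromosome 16, 48842551 to 48844461) had 514 control UMIs in monocyte/macrophage-like cells, at 212 CPM (194–232), and 807 knockout UMIs, at 288 (268–308), a ratio of 1.36 (1.21–1.52). The log2 ratio of 0.44 was -0.01 as a mean over cells, 0.77 without the highest cell of each library and 1.44 without the 5 highest. Only 18 control cells and 23 knockout cells had any, which was 1.63% and 2.03% of thinned cells, with overlapping intervals. The counting intervals of the CPM do not overlap, but they treat transcripts as independent, and the transcripts of Retnla came from a handful of cells. In control 1 cell of cluster 14 had 269 UMIs, 52.3% of the class's total. In knockout the 2 highest cells had 319 and 186 UMIs, or 39.5% and 23.0% of the total.

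The clusters pointed in opposite directions for Retnla. In cluster 13 it had 234 control and 773 knockout UMIs, a ratio of 3.44, and in cluster 14 it had 279 and 33, a ratio of 0.123. A single cell held 96.4% of the control UMIs of cluster 14. Without the highest cell of each library the log2 ratio in cluster 14 was 0.72, and in cluster 13 it was 2.10. Taken as a mean over cells, cluster 13 had a log2 ratio of 0.50 in place of 1.78. Retnlg shared 0 of its 411 end windows with Retnla. It was one of the neutrophil markers used in naming, and its level in neutrophil-like cells was 5449 CPM in control and 2815 in knockout.

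At full depth, Chil3 and Retnla were found in some of the same cells in both libraries. After thinning, 0 control cells had both, 65 had Chil3 alone and 8 Retnla alone. In thinned knockout cells 7 had both, 54 Chil3 alone and 4 Retnla alone. The counts that follow are at full depth. Of the cells with any Retnla, 8 of 18 in control and 14 of 23 in knockout had at least 1 Chil3 UMI. Of control cells with at least 10 UMIs, 38 had Chil3, 5 had Retnla and 1 had both. In knockout 31 had Chil3, 8 had Retnla and 7 had both. The knockout cell with 1775 Chil3 UMIs also had 186 of Retnla and the highest Arg1 count of its library, 209. The control cell with 269 Retnla UMIs had 0 of Chil3 and 0 of Arg1. The 5 control cells with the most Chil3 had between 121 and 286 Arg1 UMIs and 0 of Retnla. These cells were picked for their values, and no test applies.

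**Figure D3:**
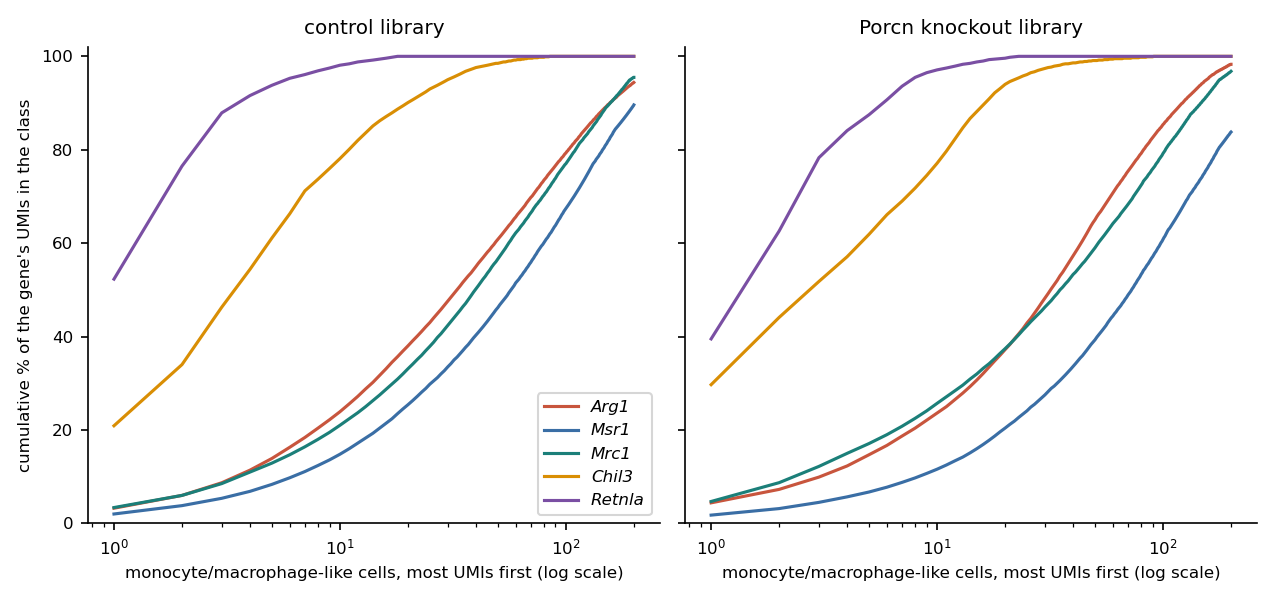
Cumulative percentage of each gene's UMIs in monocyte/macrophage-like cells, with cells ranked from the most UMIs and the rank on a log scale, for the control library (left) and the knockout library (right). Retnla reaches 50% within 1 control cell and 2 knockout cells and Chil3 within 4 and 3, whereas Arg1 takes 33 and 32 cells and Msr1 58 and 73.

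Il10 (ENSMUSG00000016529, chromosome 1, 131019845 to 131024974) was hardly detected in monocyte/macrophage-like cells, with 5 control UMIs at 2.07 CPM (0.671–4.82) and 3 knockout UMIs at 1.07 (0.221–3.13). It was highest in T-like cells, with 22 control UMIs at 33.2 CPM (20.8–50.3) and 128 knockout UMIs at 18.9 (15.8–22.5). All 22 control UMIs and 98 of the knockout UMIs lay in cluster 20, which was led by Tnfrsf4, Ctla4, Icos and Ikzf2. That cluster had 23 control and 296 knockout cells, and Il10 was present in 3 and 35 of them. Plasma-like cells had 2 UMIs in control and 35 in knockout, at 3.16 and 11.8 CPM with overlapping intervals.

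Counted over the set, 8 of the 10 genes reached 20 UMIs in monocyte/macrophage-like cells. Of these 1, Arg1, was lower past 2-fold in knockout and 0 were higher. Among all 10214 genes with 20 UMIs in the class, 3.61% were lower and 2.76% higher past 2-fold. The median log2 ratio of the 8 genes was -0.30, and that of all genes -0.03. In neutrophil-like cells only Arg2 and Chil3 reached 20 UMIs, and 1 was lower and 0 higher, where 7.29% of 5785 genes were lower and 7.42% higher.

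**Figure D4:**
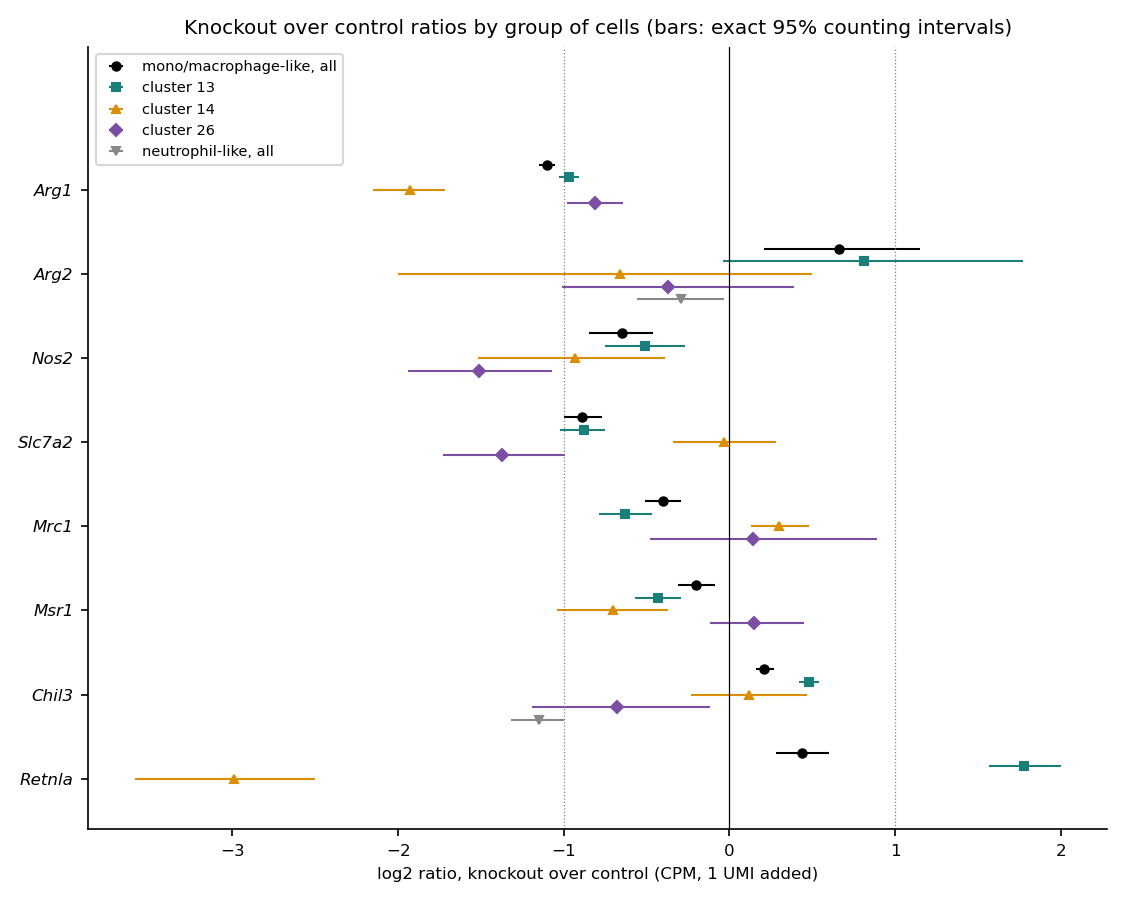
Log2 ratio of knockout to control for each gene with at least 20 UMIs, in all monocyte/macrophage-like cells (black), in clusters 13, 14 and 26, and in neutrophil-like cells (grey), with exact 95% counting intervals. Arg1 and Nos2 lie below 0 in all 3 clusters, while Mrc1 and Retnla lie on opposite sides of 0 in clusters 13 and 14, and dotted lines mark 2-fold.

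Few other genes of arginine and polyamine metabolism passed 2-fold. Of 34 listed genes, which include 4 of the set, 29 reached 20 UMIs in monocyte/macrophage-like cells, with a median log2 ratio of 0.08. Of these 1 was higher and 2 lower past 2-fold. Over all 10214 genes counted in the class, 2.76% were higher and 3.61% lower. Ass1, argininosuccinate synthase, which rebuilds arginine from citrulline, was higher past 2-fold, at 50.4 CPM in control and 120 in knockout, a ratio of 2.37 (1.92–2.94). Slc7a6, an amino acid exchanger, was lower past 2-fold beside Arg1, at 12.8 and 5.71 CPM from 31 and 16 UMIs. The other 26 were within 2-fold. Odc1, the first enzyme of polyamine synthesis from ornithine, had a log2 ratio of 0.38, and Gch1, the first enzyme of the cofactor that nitric oxide synthase needs, of 0.63. Oat, which links ornithine to proline, had -0.50.

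Genes of alternative activation, listed without the set, had 30 of 34 members at 20 UMIs. Of these 6 were lower past 2-fold and 0 higher, with a median of -0.20. The shares over all genes counted in the class were 3.61% lower and 2.76% higher. Lyve1, a hyaluronan receptor, had 41 and 13 UMIs, a log2 ratio of -1.80, and Ccl17, a chemokine, had 68 and 24, a ratio of -1.68 on that scale. Fn1 (fibronectin) and Spp1 (osteopontin) were abundant and had log2 ratios of -1.44 and -1.20, with 1381 and 509 CPM for Fn1 and 3746 and 1627 for Spp1. Fn1 also served as a monocyte marker in naming the cells. The remaining 24 genes were within 2-fold, among them Trem2 at -0.30 and Irf4 at 0.64. These values are for the whole class, in which cluster 26 was 10.7% of control and 27.7% of knockout cells. The part of this make-up was not tested.

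Of 28 classical activation genes, listed without the set, 25 reached 20 UMIs. Past 2-fold, 6 were higher and 1 lower, 18 were within 2-fold, and the median was 0.51. The shares over all genes counted in the class were 2.76% higher and 3.61% lower. Cxcl9 and Cxcl10, interferon-induced chemokines that attract T cells, went from 322 to 1008 CPM and from 164 to 549 CPM, log2 ratios of 1.64 and 1.74. Ccl5 had a log2 ratio of 1.64. Il12b, a subunit of interleukin 12, had 3 UMIs in control and 50 in knockout, a ratio of 14.4 (4.65–72.1). Il6 was the gene lower past 2-fold, with 20 and 8 UMIs. Within 2-fold, the costimulatory ligand Cd80 had a ratio of 0.509 (0.372–0.691) and the cytokine Il1a of 0.585 (0.463–0.736). Fcgr1, also higher, was a macrophage marker in naming the cells. T cell markers, given above, were also higher in these knockout cells, and Ccl5 is a transcript that T cells are known to make. Fcgr1 was also among the leading genes of cluster 26, which was 10.7% of the class in control and 27.7% in knockout. The lists were not computed by cluster or with clusters weighted alike. The part of this make-up in their counts and medians was not tested.

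**Figure D5:**
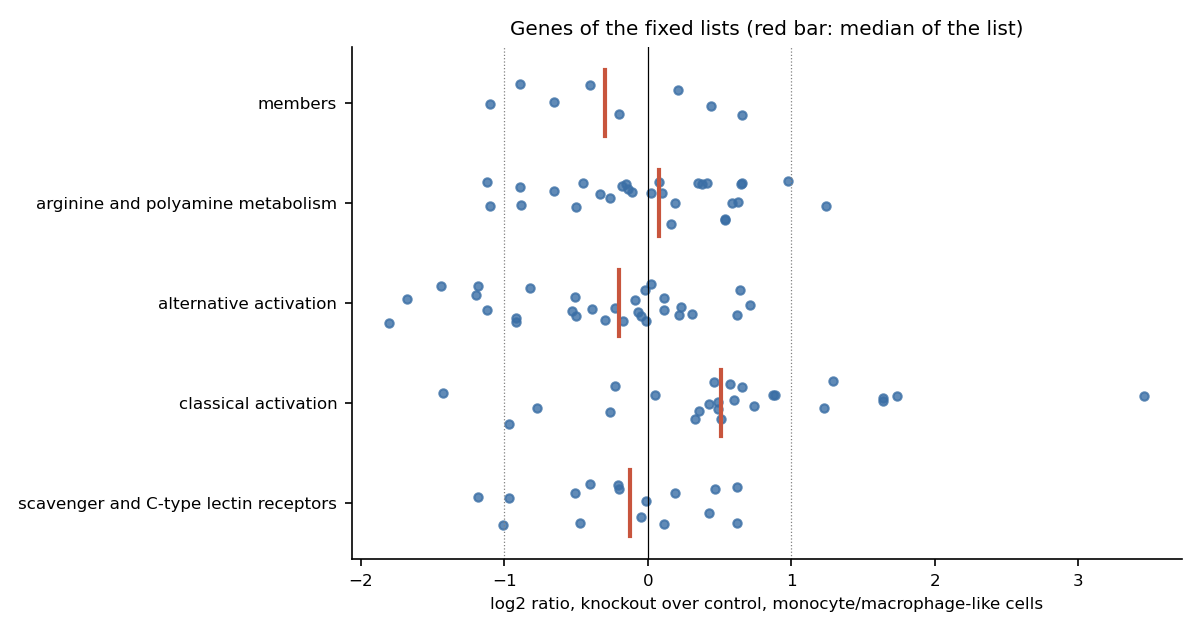
Log2 ratio of knockout to control in monocyte/macrophage-like cells for each gene with at least 20 UMIs in the set (top row) and in 4 lists, with 1 point per gene, a red bar at each list's median and dotted lines at 2-fold. The medians are -0.30, 0.08, -0.20, 0.51 and -0.12 from top to bottom.

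The receptors and regulators known to act on these genes differed little. Of 26 listed cytokines, receptors and transcription factors, 21 reached 20 UMIs, with a median of 0.02, and 20 were within 2-fold. The exception was Il33, a cytokine, with 41 and 19 UMIs and a log2 ratio of -1.28. Il4ra, the receptor for interleukin 4 and interleukin 13, had a log2 ratio of -0.04, and Stat6, its transcription factor, of -0.05. Cebpb had 0.09 and Hif1a -0.22. Of the 15 genes of the IL-10 family and its targets 10 reached 20 UMIs, and 0 passed 2-fold in either direction. Among 23 scavenger and C-type lectin receptors 16 were counted, and 2 were lower past 2-fold: Cd36 (-1.18), a fatty acid and lipoprotein receptor, and Olr1 (-1.01), a receptor for oxidised lipoprotein. Of the 11 chitinase-like and resistin-like genes only Chil3 and Retnla reached 20 UMIs in this class. Beside these counts, 3.61% of all genes counted in the class were lower and 2.76% higher past 2-fold.

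In neutrophil-like cells the make-up of the class differed between the libraries. Cluster 28 was 46.4% of control and 77.8% of knockout neutrophil-like cells, and macrophage markers summed to 193 CPM in control and 507 in knockout, with 10 of 12 higher. T cell markers summed to 31.5 and 180 CPM. Their part in the following counts was not tested. Over all 5785 genes counted in the class, 7.42% were higher and 7.29% lower past 2-fold. Of 20 classical activation genes counted, 12 were higher and 0 lower past 2-fold, led by Cxcl9 (4 and 40 UMIs, log2 ratio 3.87), Ccl5 (4 and 21 UMIs, 2.98), Cxcl10 (89.6 and 578 CPM, 2.68) and Gbp5 (2.28). Of 10 alternative activation genes 6 were higher and 1 lower. Ccl24 had 1 control UMI and 21 knockout UMIs, Pdcd1lg2 24.2 and 99.6 CPM, Mgl2 a log2 ratio of 1.94 and Il1rn 1.78, and Fn1 was lower at -1.20. Of 14 arginine and polyamine genes Smox, spermine oxidase (1.35), and Gch1 (1.33) were higher and Gatm (-1.69, from 22 and 3 UMIs) lower.

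The remaining lists held fewer neutrophil genes. Of 17 regulators 3 were higher past 2-fold. Irf8, a transcription factor of macrophages and dendritic cells, had 0 UMIs in control and 31 in knockout, and no fold is given. Csf1 had a log2 ratio of 1.31. Of 10 IL-10 family and target genes Etv3 (2.34, from 5 and 16 UMIs), Ddit4 (2.03) and Il1rn were higher. Of 8 scavenger and lectin receptors Mgl2, Cd68 (1.68), itself one of the macrophage markers, and Clec4e (1.04) were higher. Of the 3 chitinase-like and resistin-like genes counted, Chil3 was lower past 2-fold and Retnlg had -0.95. With the stricter cell filter, which left 48 control and 12 knockout neutrophil-like cells, 3 classical and 1 alternative activation genes were higher past 2-fold, and 0 of the arginine and polyamine genes.

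The genes whose levels most resembled each of the set were named over 18 points, each a class of at least 50 cells in a library, as a description with Pearson's r of log2(CPM + 1). The points share libraries, and most classes are at or near 0 for these genes. Arg1 was most like Mmp12, C3ar1 and Stab1, each with r = 0.95. Mrc1 was most like Msr1 (0.96), Ms4a7 and C1qc (0.95), and Msr1 like C1qc, Ms4a7 and Clec4a3 (0.97). Arg2 was most like Rab20 (0.97), Fpr2 and Mmp8 (0.96), Chil3 like Gm5150, 4930430E12Rik and Cd300ld (0.98) and Retnla like Folr2, Rnase2a (0.98) and Ednrb (0.97). Nos2 and Slc7a2 were the 2 genes with most of their UMIs in epithelial/tumour-like cells. Nos2 was most like Gm46401 (0.93), Pou3f1 (0.90) and Hmox1 (0.89), and Slc7a2 like Gab1 (0.93), Ctsl (0.90) and Fam20c (0.89). Il10 was most like Bcl2l15 (0.91), Fam169b (0.84) and Rilpl2 (0.83), and Cd163 had too few UMIs.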

How the data were processed

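Single-cell RNA-seq counts of 2 libraries were analysed, 1 per genotype, each from pooled tumours of 5 mice. The deposited values are unnormalised UMI counts per gene and barcode, with Cell Ranger 8.0.0 named in the headers as deposited, whereas the submitters' processing notes name Cell Ranger 3.1.3 and mm10. Barcodes under 500 genes or over 15% mitochondrial counts were left out, and Scrublet doublets removed. Cells were clustered with scanpy 1.11.5 (2000 variable genes without the 10 genes, 30 components, Leiden resolution 1). Clusters were named "-like" from fixed marker lists, by a scoring rule set after the clusters were seen. Counts were summed per class and library. Ratios have exact conditional intervals, log2 ratios a pseudocount of 1 UMI, and a ratio needs 20 UMIs over both libraries. Past 2-fold was called higher or lower, without a test. Shares were also computed with each cell thinned to 1000 UMIs. The code for ratios and intervals was tested on class sums simulated as independent Poisson counts, which is what the intervals assume. That test does not cover genes whose UMIs lie in a few cells. The text names all 10 genes, up to 4 genes per list and direction with the largest log2 ratios past 2-fold, and the 3 genes most like each; the paralogs and list genes named beside these were chosen after their values were seen. The genes and lists were chosen with earlier results of these data known. Positions are those of GRCm38. Some genes are not reported here.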

Additional observations from a re-analysis of the deposited data

Results flagged for a closer look

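For 3 genes the log2 ratio of knockout to control had opposite signs in 2 monocyte/macrophage-like clusters, with counting intervals on either side of 0. The differences between clusters were not tested, since each genotype has 1 library. Mrc1 had -0.63 (-0.79 to -0.47) in cluster 13 and 0.30 (0.13 to 0.48) in cluster 14. Chil3 had 0.48 (0.42 to 0.54) in cluster 13 and -0.68 (-1.19 to -0.12) in cluster 26, where it had 44 and 98 UMIs and where leaving out the highest cell of each library gave -0.16. Retnla had 1.78 in cluster 13 and -2.99 in cluster 14, where 1 control cell held 96.4% of the control UMIs.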

How the results depend on the processing

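Each genotype has 1 pooled library, so no setting shows the spread between mice. No paired analysis was possible because each genotype has 1 library. Arg1 in monocyte/macrophage-like cells was lower in all 12 alternatives. Its log2 ratio of -1.10 became -1.25 with a looser and -1.30 with a stricter cell filter, -1.27 at Leiden resolution 0.5 and -1.26 with the 10 genes among the clustering genes. It was -1.30 as a mean over cells, -1.37 after thinning, -1.02 with clusters weighted alike and -1.30 with the unnamed monocyte and cDC2 cluster. The count of genes past 2-fold, 1, became 2 with Slc7a2 under both filters, resolution 0.5, the 10 genes in clustering, the mean over cells and the unnamed cluster. It became 2 with Cd163 when doublets were kept or no minimum of UMIs was set, and 4 at a fold of 1.5. The share of all genes past the fold was not computed under these alternatives, so the counts have nothing to be set against.

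In neutrophil-like cells, Arg2 went from -0.29 to -0.02 under the stricter filter, -0.63 as a mean over cells, -0.79 after thinning, -0.61 with clusters weighted alike and -0.86 without the granule-gene cluster. Chil3 went from -1.15 to -0.12, -1.74, -1.59 and -0.05 under the first 4 of these. Leaving out the highest cell of each library gave -1.52. Without the granule-gene cluster Chil3 had 0.49, but from fewer UMIs than a ratio requires here, so no direction is read from it. The count past 2-fold, 1, became 0 under the stricter filter and without that cluster, and 5 with no minimum of UMIs. Here too no share of all genes was computed under the alternatives. Retnla in cluster 14 turned from -2.99 to 0.72 without the highest cell of each library. In the whole monocyte/macrophage-like class Retnla ranged from -0.01 to 1.44, Arg2 from -0.07 to 0.95 and Msr1 from -0.38 to 0.05, while Nos2, Slc7a2 and Mrc1 stayed below 0 and Chil3 above 0 in all 12. The alternatives with the unnamed cluster, without the granule-gene cluster, without the 5 highest cells and within single clusters were chosen after seeing the data. Where a value or construction above does not show it, the cause was not tested.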
